A study of Homo sapiens with 22 samples.

Results

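MPO (ENSG00000005381, chromosome 17), the gene of myeloperoxidase, was followed through 12 RNA libraries of HEK293 cells, an established line of human embryonic kidney origin. It is 1 of 48162 gene IDs in the count table and was chosen from its own counts, which were near 0 in 2 groups and raised in the other 4. Those levels and the contrasts between the low and the raised groups are therefore described here with no test. The cells carried fusions of dCas9, a Cas9 without nuclease activity that a guide RNA brings to a chosen DNA sequence, and dox was given for 48 hours to induce them. VPR adds 3 joined activators (VP64, the p65 domain and Rta). The p300 fusion adds the histone acetyltransferase of EP300, D1399Y is its catalytically impaired mutant, and VPRP combines VPR with p300. The 6 groups were WT, with a guide and no fusion and sorted for BFP alone, and 5 groups sorted for GFP and BFP together. These were VPRP non-target, VPRP sgHBB, VPR sgHBB and, with the acetyltransferase alone, p300 D1399Y sgHBB and p300 sgHBB. The guide sgHBB is directed at the beta-globin gene HBB, VPRP non-target has a guide with no target, and the guide of the WT cells is not given in the labels. Each group had 2 libraries, described by the series as biological replicates.

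Myeloperoxidase is a heme enzyme that is packed into the azurophil granules of neutrophils while these cells mature in the bone marrow. In the phagosome it uses hydrogen peroxide, which derives from the NADPH oxidase, to turn chloride into hypochlorous acid, a strong antimicrobial oxidant. Its gene is normally active in myeloid precursors together with the genes of the granule serine proteases, under factors of the C/EBP, RUNX, MYB and ETS families. Kidney epithelial cells are not known as a site of its expression.

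The libraries held 14894558 to 17479523 counts each, and 16694 genes passed a low-count filter. A level is a CPM value, that is, reads relative to library size after TMM scaling. A gene with no read in a library may still be present at up to 3 counts, or 0.166 to 0.207 CPM. Over genes with a mean of at least 50 counts in a group, replicate libraries differed by 2.86 to 13.6 times the variance that counting alone gives. Genes with fewer counts are not covered by this range. Adjusted p-values come from the quasi-likelihood test of edgeR, adjusted by Benjamini-Hochberg over all genes tested, and a call is an adjusted p under 0.05. The 8 HEK293 markers found in the table, among them VIM, NEFM, KRT8 and PAX2, had reads in all 12 libraries. The groups also stood apart in another gene. MAGEA10, a cancer-testis antigen gene, was at 9.46 CPM in WT, 25.9 CPM in VPR sgHBB and 32.0 CPM in VPRP non-target, but at 0 to 0.213 CPM in the other 3 groups. Groups raised in MPO lay on both sides of that division, as did the 2 low groups.

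No MPO read was counted in either WT library. In p300 sgHBB there were 2 reads in replicate 1 and 0 in replicate 2. VPR sgHBB had 85 and 70 reads (5.38 and 4.79 CPM), p300 D1399Y sgHBB had 86 and 78 (4.97 and 5.39 CPM), and VPRP sgHBB had 73 and 92 (4.76 and 5.08 CPM). These 6 libraries lay close together. VPRP non-target had 70 reads in replicate 1 (4.25 CPM, 95% Poisson interval 3.31 to 5.37) and 42 in replicate 2 (2.33 CPM, 1.68 to 3.15). Its replicate 2 was the lowest of the 8 raised libraries, and the counting intervals of its 2 libraries did not overlap. Such intervals cover counting error only. In RNA from bulk cells, fewer cells that make a transcript and less of it per cell cannot be told apart.

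**Figure D1:**
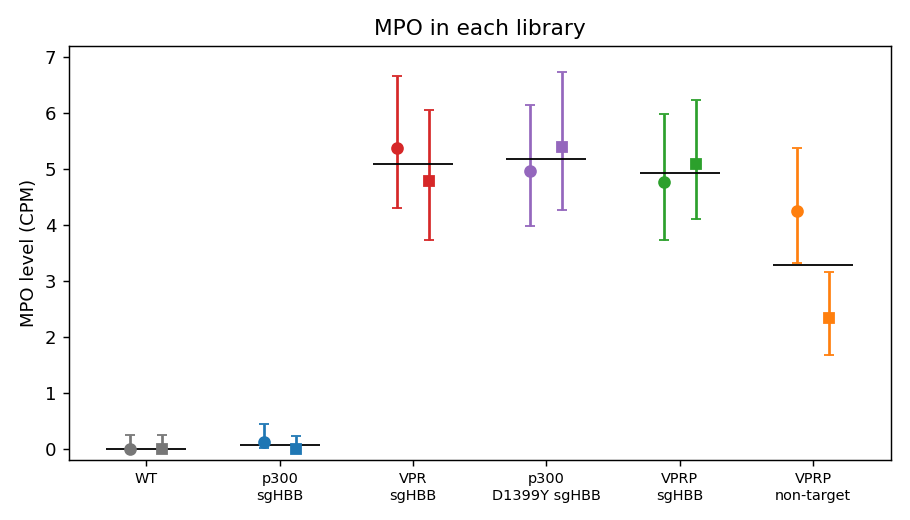
MPO level in CPM (vertical axis) in each library by group (horizontal axis), with circles for replicate 1, squares for replicate 2, 95% Poisson intervals as error bars and group means as black lines. WT and p300 sgHBB sit at or near 0, 6 raised libraries lie between 4.76 and 5.39 CPM, and VPRP non-target has its libraries at 4.25 and 2.33 CPM.

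In order of the mean, MPO was at 5.18 ± 0.300 CPM (SD, n = 2) in p300 D1399Y sgHBB, 5.09 ± 0.419 in VPR sgHBB, 4.92 ± 0.227 in VPRP sgHBB, 3.29 ± 1.36 in VPRP non-target, 0.0612 ± 0.0865 in p300 sgHBB and 0 in WT. The first 3 means lie closer together than 0.419 CPM, the largest of their SDs. As a description of the values that chose the gene, the counts of p300 D1399Y sgHBB were 86.0 times those of p300 sgHBB per scaled library size (exact 95% binomial interval 23.4 to 716). The same ratio was 84.9 (23.1 to 708) for VPR sgHBB, 82.2 (22.4 to 685) for VPRP sgHBB and 54.1 (14.6 to 452) for VPRP non-target. These intervals do not include the spread between replicates and are no test. The ratios rest on 2 reads, both in p300 sgHBB replicate 1. Without that library they become lower limits of at least 29.2-fold, 28.9-fold, 27.9-fold and 18.4-fold, and without p300 sgHBB replicate 2 they are 42.2, 41.7, 40.3 and 26.5. Against WT only a limit can be given, at least 32.8-fold to 52.2-fold over the 4 groups. It fell to between 16.1-fold and 26.6-fold when 1 WT library was left out, since the floor of 3 counts then stands for a single library.

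The differences among the 4 raised groups were not used to choose the gene and were tested, in 6 pairs. Of these, 1 was called: MPO was 1.58-fold lower in VPRP non-target than in p300 D1399Y sgHBB (log2 -0.66, SE 0.282, adjusted p = 0.0437). In that comparison 58.1% of all genes were called. VPRP non-target was also below VPR sgHBB (log2 -0.64, SE 0.283, 95% interval -1.22 to -0.06, adjusted p = 0.0552) and below VPRP sgHBB, which was higher by log2 0.59 (SE 0.282, 95% interval 0.02 to 1.17, adjusted p = 0.115). Neither was called. The backgrounds of these 2 comparisons were 55.3% and 29.3% of all genes called. The 2 VPRP groups also lie on different sides of the MAGEA10 division and differ in EP300 reads, and the part of either in this difference was not tested.

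The other 3 pairs showed no call, with intervals that allow ratios from 0.651 to 1.44, and 49.8%, 46.8% and 21.1% of all genes were called in them. VPRP sgHBB and VPR sgHBB differed by log2 -0.05 (SE 0.271, 95% interval -0.60 to 0.51, adjusted p = 0.901). VPRP sgHBB and p300 D1399Y sgHBB differed by -0.07 (SE 0.270, 95% interval -0.62 to 0.48, adjusted p = 0.850), and VPR sgHBB and p300 D1399Y sgHBB by -0.02 (SE 0.272, 95% interval -0.58 to 0.53, adjusted p = 0.976). The single call depends on the processing. It was lost with DESeq2 (adjusted p = 0.164), with RLE factors (0.0515) and upper-quartile factors (0.0599), with a filter of 1 CPM in at least 2 libraries (0.0511), and without p300 D1399Y sgHBB replicate 1 (0.0782), its replicate 2 (0.133) or VPRP non-target replicate 2 (log2 -0.29, adjusted p = 0.482). Without VPRP non-target replicate 1 all 3 pairs with that group were called, at log2 -1.16 against p300 D1399Y sgHBB, -1.14 against VPR sgHBB and 1.10 for VPRP sgHBB against it.

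**Figure D2:**
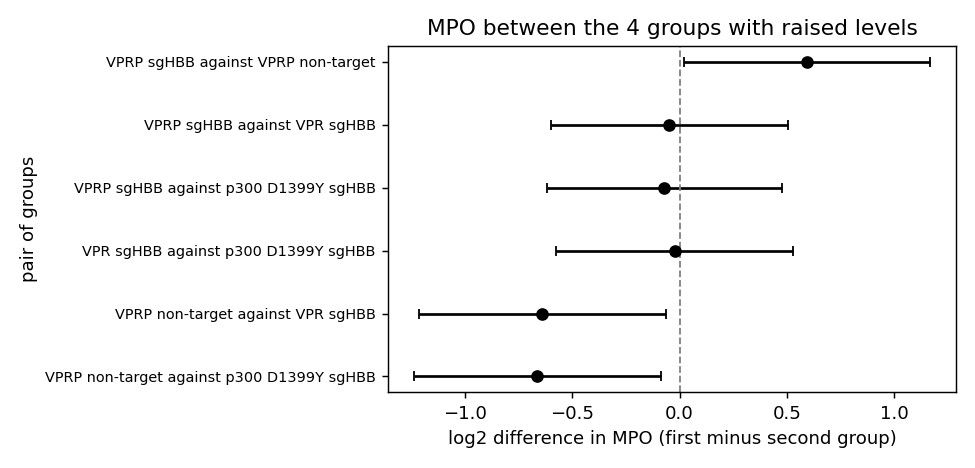
Log2 difference in MPO between the first and the second group named (horizontal axis) for the 6 pairs of raised groups (vertical axis), with points for the fitted values and bars for 95% intervals. The 3 pairs without VPRP non-target are centred near 0, and the 3 pairs with it lie 0.59 to 0.66 away from 0.

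The levels of the guide's target and of the fusions' own genes are given beside those of MPO as values, with no test. HBB was at 0 in WT and in VPRP non-target, and at 80.4 ± 20.6, 187 ± 2.67, 79.1 ± 4.23 and 1556 ± 250 CPM (SD, n = 2) in VPR, p300, p300 D1399Y and VPRP with sgHBB. MPO was at 3.29 CPM in VPRP non-target, which had no HBB read, and at 0.0612 CPM in p300 sgHBB, which had the second highest HBB level. EP300, whose reads can come from the cells' own gene or the construct, was at 107 ± 5.40 CPM in WT and 98.7 ± 17.6 in VPR sgHBB. It was at 195 ± 1.19 in p300 D1399Y sgHBB, 375 ± 33.3 in VPRP sgHBB, 1124 ± 11.2 in p300 sgHBB and 1172 ± 9.92 in VPRP non-target. The 2 groups highest in EP300 were thus 1 raised and 1 low in MPO. RELA, the gene of p65, ranged from 93.4 to 117 CPM over the group means.

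Of the genes whose products share the azurophil granule with myeloperoxidase, ELANE, PRTN3 and SRGN were low and high in the same groups as MPO. The list holds 10 genes, none of them on chromosome 17: the serine proteases ELANE, PRTN3 and CTSG, their inactive relative AZU1, the antimicrobial proteins BPI, LYZ, DEFA4 and RNASE3, the proteoglycan SRGN, which retains proteases in granules, and the membrane protein CD63. ELANE, neutrophil elastase, had 0 reads in all 4 WT and p300 sgHBB libraries. It had 22 and 26 reads in VPR sgHBB, 45 and 38 in p300 D1399Y sgHBB, 16 and 25 in VPRP sgHBB, and 14 and 6 in VPRP non-target. The raised and the low libraries did not overlap, and VPRP non-target replicate 2 was again the lowest of the 8.

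Upstream sequence was held for 2 of the granule genes that were called, PRTN3 and CTSG, and is shown because both were called in VPR sgHBB and VPRP sgHBB although they lie on different chromosomes. The lines give the 100 bases before the RefSeq start (GRCh38.p14), 5′ to 3′ on the gene's strand, at chr19:840899-840998 (plus strand) and chr14:24576251-24576350 (minus strand). Capitals mark matches on either strand to GGAA, the core of ETS sites, or to TTNNGNAA, a form of C/EBP site.
PRTN3: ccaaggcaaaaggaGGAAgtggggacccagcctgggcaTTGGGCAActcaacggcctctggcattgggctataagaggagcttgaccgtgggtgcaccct
CTSG: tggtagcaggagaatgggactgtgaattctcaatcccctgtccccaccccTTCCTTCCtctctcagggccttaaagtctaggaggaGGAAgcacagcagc
PRTN3 holds 1 match to GGAA and 1 to TTNNGNAA, and CTSG holds 3 to GGAA. Of 27305 such windows, 67.2% hold GGAA and 13.5% hold TTNNGNAA, and neither gene matched TATAAA (5.51% of windows) or TGNGGT, a RUNX site (16.7%). These matches describe the letters of the windows and nothing more.

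PRTN3, proteinase 3, had 5 and 3 reads in WT and 7 and 3 in p300 sgHBB. It had 25 and 18 in VPR sgHBB, 32 and 22 in p300 D1399Y sgHBB, 30 and 32 in VPRP sgHBB, and 29 and 20 in VPRP non-target, so that every raised library stood above every low one. SRGN was also higher in every raised library than in every low one, with 1 and 3 reads in WT, 4 and 5 in p300 sgHBB, and 12 (VPRP non-target replicate 2) to 50 (VPRP sgHBB replicate 2) in the raised libraries. LYZ, lysozyme, had 0 reads in WT, 0 and 4 in p300 sgHBB and 4 to 17 in the raised libraries, where p300 D1399Y sgHBB had 17 in each. CTSG, cathepsin G, was 0 in all 4 low libraries and had 12 and 19 reads in VPR sgHBB and 5 and 13 in VPRP sgHBB. It had only 4 and 1 in p300 D1399Y sgHBB and 2 and 1 in VPRP non-target. CTSG thus did not have the same order as ELANE, which was highest in p300 D1399Y sgHBB.

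AZU1, BPI, DEFA4 and RNASE3 were close to the counting floor. AZU1 had 0 to 3 reads in the low libraries and 0 to 10 in the raised ones, BPI had 0 to 1 and 1 to 14, DEFA4 0 to 1 and 0 to 7, and RNASE3 0 and 0 to 2. VPRP sgHBB replicate 2 had the highest count of each, tied with its replicate 1 for RNASE3. CD63, which also marks lysosomes and endosomes of most cells, had 3273 to 5026 reads. It rose 1.48-fold in VPR sgHBB (adjusted p = 3.55e-06) and 1.18-fold in VPRP sgHBB (adjusted p = 0.0127), the latter lost without either WT library or without VPRP sgHBB replicate 1.

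**Figure D3:**
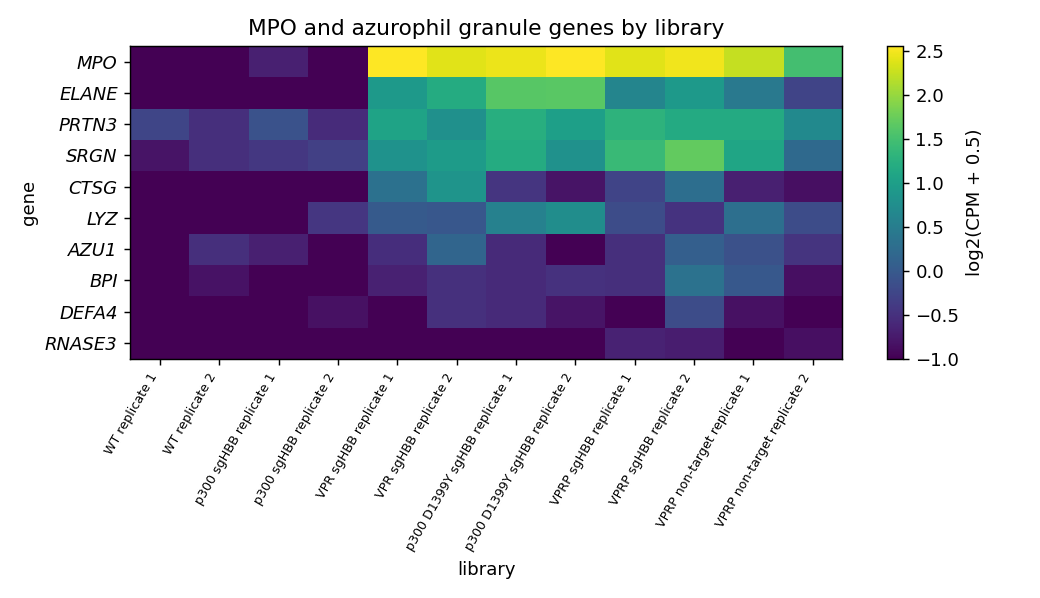
Levels of MPO and 9 azurophil granule genes (rows) in the 12 libraries (columns), as log2(CPM + 0.5) on the colour scale. The 4 WT and p300 sgHBB libraries on the left are near the bottom of the scale in every row, and the 8 libraries on the right are raised for MPO, ELANE, PRTN3 and SRGN, with CTSG and LYZ raised in some of them.

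Of the 10 granule genes 6 passed the low-count filter, and these include the ones that passed through the raised groups alone, so the counts of calls below are a description. Against WT, 6 rose in VPR sgHBB (13.8% of all genes tested rose), 4 in p300 D1399Y sgHBB (15.7%), 6 in VPRP sgHBB (31.1%) and 4 in VPRP non-target (31.2%), while 0 rose or fell in p300 sgHBB (24.5% rose). In that group 0 of the 6 had an unadjusted p under 0.05 in edgeR and 0 were called by DESeq2. In p300 D1399Y sgHBB against p300 sgHBB, 5 rose (15.0%). None of the 6 fell in any of these comparisons by edgeR, where 11.5%, 21.6%, 14.5%, 28.0% and 28.5% of all genes fell in VPR, p300, p300 D1399Y, VPRP sgHBB and VPRP non-target against WT and 15.4% in p300 D1399Y sgHBB against p300 sgHBB. With no filter all 10 were tested among 32291 genes, and 6 rose in VPR sgHBB (6.31% of all genes), 4 in p300 D1399Y sgHBB (7.19%), 7 in VPRP sgHBB (15.7%), 4 in VPRP non-target (15.5%), 0 in p300 sgHBB (12.0%) and 5 in p300 D1399Y against p300 (6.61%). The comparisons with WT share the WT libraries. Over the 6 that passed, with genes at 0 in WT set to their limit, the median log2 difference from WT was 2.83, 3.04, 2.61 and 2.51 in VPR, p300 D1399Y, VPRP and VPRP non-target and 0.09 in p300 sgHBB, where all genes had medians of 0.00 to 0.04.

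ELANE, CTSG and LYZ have no read in WT, and PRTN3 and SRGN had fewer than 10 reads in every low library. All of these passed the filter through the raised groups, so their p-values, like the counts, are a description. The same holds for their p-values in p300 D1399Y sgHBB against p300 sgHBB below. All granule calls named here were also made in the fit with no filter. ELANE was at least 16.0-fold higher than in WT in VPR sgHBB (adjusted p = 1.46e-05), at least 26.4-fold in p300 D1399Y sgHBB (3.23e-07), at least 12.4-fold in VPRP sgHBB (7.57e-06) and at least 5.86-fold in VPRP non-target (0.000423). Its limits fell to between 2.87-fold and 13.5-fold without 1 WT library, with every call kept. PRTN3 rose 5.22-fold, 6.26-fold, 6.87-fold and 5.28-fold in the same groups (adjusted p = 0.00288, 0.000531, 7.93e-05 and 0.000655). SRGN rose 9.73-fold, 11.0-fold, 17.7-fold and 8.23-fold (adjusted p = 0.000693, 0.000184, 1.25e-06 and 0.000449). CTSG was called in VPR sgHBB (at least 10.3-fold, adjusted p = 0.000433) and VPRP sgHBB (at least 5.44-fold, adjusted p = 0.00158), and without 1 WT library these limits were as low as 5.06-fold and 2.67-fold. LYZ was called in all 4, by at least 4.99-fold, 10.8-fold, 3.02-fold and 5.57-fold (adjusted p = 0.00667, 0.000189, 0.0116 and 0.00122). Without 1 WT library these limits were as low as 2.45-fold, 5.31-fold, 1.48-fold and 2.73-fold. Such limits allow for the floor in WT but not for counting error in the raised groups. The LYZ call in VPR sgHBB was lost without WT replicate 1 (adjusted p = 0.0591) or 2 (0.0657), that in VPRP sgHBB without WT replicate 1 (0.0648), WT replicate 2 (0.0694) or its own replicate 1 (0.0582), and the PRTN3 call in VPR sgHBB without WT replicate 2 (0.0527).

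The p300 sgHBB and p300 D1399Y sgHBB groups differed in ELANE, PRTN3, SRGN and LYZ as they did in MPO. EP300 reads also differed, at 1124 CPM in p300 sgHBB and 195 CPM in p300 D1399Y sgHBB. The mutation and the EP300 level therefore cannot be told apart here. ELANE was at least 29.0-fold higher in p300 D1399Y sgHBB than in p300 sgHBB (adjusted p = 2.89e-07), PRTN3 5.52-fold (log2 2.46, SE 0.550, adjusted p = 0.000776) and SRGN 5.54-fold (log2 2.47, SE 0.587, adjusted p = 0.00146). LYZ was 8.49-fold higher by the fit (SE 0.818 on the log2 scale, adjusted p = 0.0041). This call did not hold when p300 sgHBB replicate 1, which has no LYZ read, was left out (adjusted p = 0.104).

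The 2 libraries of VPRP non-target also differed alike for MPO and several granule genes. MPO was 1.83 times higher in its replicate 1 than in its replicate 2, ELANE 2.56 times, SRGN 2.47 times, LYZ 1.88 times and PRTN3 1.59 times. Of the 10 granule genes 9 were higher in replicate 1, the exception being RNASE3 with 0 and 1 reads. The 9 include DEFA4 with 1 and 0 reads, CTSG with 2 and 1, and CD63 with a ratio of only 1.06. Counts as low as those of RNASE3, DEFA4 and CTSG cannot show a difference. Over all 16694 genes 48.2% were higher in replicate 1, and 7.63% of genes at similar levels (a mean of 0.5 to 5 CPM) had a ratio at least as large as that of MPO. In the other raised groups the granule genes were split between the replicates, with 2, 5 and 4 of 10 higher in replicate 1 in VPR, p300 D1399Y and VPRP with sgHBB.

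Summed over the 8 neutrophil granule markers (the list without SRGN and CD63), the level was 0.336 and 0.453 CPM in WT and 0.551 and 0.471 CPM in p300 sgHBB. It was 4.56 and 5.82 CPM in VPR sgHBB, 6.18 and 5.67 in p300 D1399Y sgHBB, 4.24 and 5.91 in VPRP sgHBB, and 4.43 and 2.22 in VPRP non-target. The low and the raised libraries did not overlap, and of the 8 markers 5 to 7 were at 0 in each low library and 0 to 2 in each raised one. In 7 of the 8 raised libraries this sum was 0.847 to 1.21 times the CPM of MPO, with no scaling for gene length, and in the eighth, p300 D1399Y sgHBB replicate 1, it was 6.18 beside 4.97 CPM. The sum of these markers of another cell type thus moved with MPO, and their part in the result was not tested. Single markers differed. ELANE and PRTN3 were higher in every raised library than in every low one. AZU1 had 3 summed reads in p300 D1399Y sgHBB and 3 in WT, and RNASE3 had 0 in VPR sgHBB and 0 in p300 D1399Y sgHBB.

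Several of the general leukocyte markers were too low to compare one by one. PTPRC, the CD45 antigen of leukocytes, had 0 reads in WT and p300 sgHBB. It had 3 and 1 in VPR sgHBB and 5 and 3 in p300 D1399Y sgHBB. In VPRP sgHBB it had 0 and 1, and in VPRP non-target 4 and 3. These reads are too few to show a difference between groups. FCGR3B and MNDA, markers of mature neutrophils and monocytes, had 0 to 1 and 0 to 5 reads. The sum of all 13 markers ran from 23.4 to 29.5 CPM, most of it from KIT and ITGB2, which had reads in every library. Without these 2, a choice made after values were seen, it was 0.647 to 1.41 CPM in WT, 1.14 to 1.78 in VPR sgHBB, 2.82 to 3.53 in p300 sgHBB, 3.67 to 4.05 in p300 D1399Y sgHBB, 2.61 to 2.87 in VPRP sgHBB and 7.26 to 7.53 in VPRP non-target. VPR sgHBB, high in MPO, overlapped WT, and p300 sgHBB, low in MPO, lay above VPR sgHBB.

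**Figure D4:**
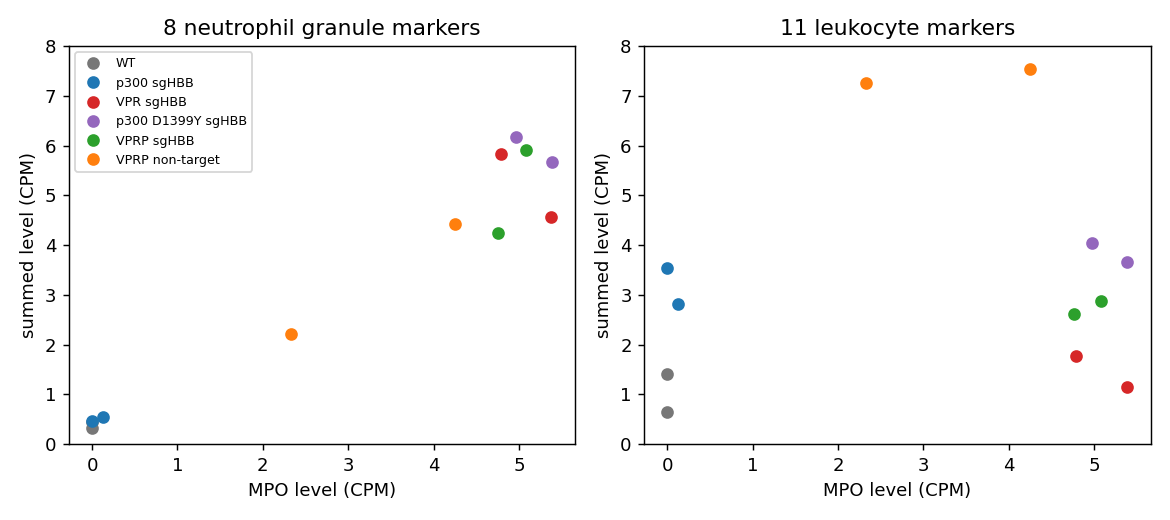
Summed level in CPM (vertical axes) of the 8 neutrophil granule markers (left) and of 11 leukocyte markers without KIT and ITGB2 (right) against the MPO level in CPM (horizontal axes), 1 point per library. On the left the libraries near 0 in MPO are below 0.551 CPM or at it and VPRP non-target replicate 2 lies between them and the rest, and on the right VPRP non-target is highest whatever its MPO level.

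Of the 13 leukocyte markers 8 were tested against WT. By edgeR 0 rose (13.8% of all genes rose) and 0 fell (11.5% of all genes fell) in VPR sgHBB. There, 0 had an unadjusted p under 0.05 and 0 were called by DESeq2. With only 8 genes tested, these counts of 0 are no result about the list. Of the 8, 2 rose in p300 sgHBB (24.5% of all genes rose), 2 in p300 D1399Y sgHBB (15.7%), 1 in VPRP sgHBB (31.1%), and 5 rose (31.2%) and 1 fell (28.5%) in VPRP non-target. ITGAM, CSF1R, CD14, S100A8 and S100A9 had 0 to 8 summed reads in WT. They passed the filter through groups where they were higher, so the counts of rises and the calls of these genes are a description. The 2 in p300 sgHBB, near the share of all genes, were CD14, lost without WT replicate 1 (adjusted p = 0.0651), and CSF1R, lost without WT replicate 2 (0.147) or p300 sgHBB replicate 2 (0.0532). The 1 in VPRP sgHBB was ITGAM, lost without WT replicate 2 (0.199) or VPRP sgHBB replicate 2 (0.197). The CSF1R call in VPRP non-target was lost without WT replicate 2 (0.0716). S100A8 and S100A9, calcium-binding proteins abundant in neutrophils and monocytes, had 22 and 12 and 19 and 11 reads in p300 D1399Y sgHBB, 13 and 8 and 11 and 12 in VPRP non-target, and 0 to 3 in every other library. They rose in p300 D1399Y sgHBB (S100A8 with a count ratio of 32.5, exact 95% interval 5.45 to 1320, adjusted p = 0.000624; S100A9 at least 9.55-fold, adjusted p = 0.000316) and in VPRP non-target (S100A8 with a count ratio of 18.5, 2.97 to 763, adjusted p = 0.0032; S100A9 at least 6.74-fold, adjusted p = 0.000487). The S100A8 call in VPRP non-target was lost without WT replicate 2 (adjusted p = 0.0597). Both genes passed the filter through these 2 groups, so the p-values are a description; the calls were also made with no filter. VPR sgHBB and VPRP sgHBB had 70 to 92 reads of MPO and 0 to 3 of each of the pair. In VPRP non-target, ITGAM had 45 summed reads against 2 in WT (count ratio 19.8, exact 95% interval 5.17 to 168). CD14 had 59 against 3 there (17.3, 5.63 to 86.2). These intervals cover counting error only.

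Of the 7 genes of the NADPH oxidase, which supplies the peroxide that myeloperoxidase uses, 4 were tested. CYBA, the p22phox subunit found in many cell types, rose in all 5 groups against WT, by 1.41-fold in VPRP non-target to 4.55-fold in VPRP sgHBB, including 3.06-fold in p300 sgHBB (adjusted p = 1.26e-16). RAC2, the GTPase of the leukocyte enzyme, rose in the 4 groups other than VPR sgHBB, where it had 2 and 9 reads. Of those calls the ones in p300 sgHBB (log2 2.233), p300 D1399Y sgHBB (2.291) and VPRP non-target (2.175) were lost without WT replicate 2. The call in p300 sgHBB was also lost without p300 sgHBB replicate 1 (log2 2.864), and that in p300 D1399Y sgHBB without its own replicate 1 (2.899). CYBB, the catalytic subunit, had 6 to 22 reads and was not called in any group, and NCF1 and NCF4 had 0 to 4. RAC1 fell 1.31-fold in VPRP non-target (adjusted p = 1.02e-05) and 1.17-fold in VPRP sgHBB, the latter lost without WT replicate 1 (0.0634) or VPRP sgHBB replicate 2 (0.0603). Median log2 differences ran from 0.54 to 1.16, against 0.00 to 0.04 over all genes, and were not separated by the MPO level of the group.

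Of 13 listed myeloid transcription factors 11 were tested. Against WT 1 rose and 2 fell in VPR sgHBB (13.8% and 11.5% of all genes), 3 and 3 in p300 sgHBB (24.5% and 21.6%), 3 and 2 in p300 D1399Y sgHBB (15.7% and 14.5%), 3 and 4 in VPRP sgHBB (31.1% and 28.0%), and 4 and 3 in VPRP non-target (31.2% and 28.5%). These counts lie near the shares of all genes and are no result about the list. CEBPE, a factor of the late granulocyte programme, had 0 to 4 reads. CEBPA had 1 to 11 reads in 11 libraries and 27 in VPRP non-target replicate 1, and its call there (adjusted p = 0.0162) turned to a log2 value of -0.27 without that library. SPI1, the ETS factor PU.1, had 3 and 4 reads in WT, 0 and 4 in VPR sgHBB and 13 and 11 in p300 sgHBB. It was highest in p300 D1399Y sgHBB (21 and 8), where its call (adjusted p = 0.05) was lost without replicate 1 (0.45), without WT replicate 1 (0.219) or 2 (0.159), and with DESeq2 (0.15).

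MYB, which maintains precursor cells, fell 2.39-fold in VPRP sgHBB and 2.24-fold in VPRP non-target (adjusted p = 7.47e-06 and 1.90e-05). GFI1, a repressor needed for granulocytes, fell in the same groups too, by 1.93-fold in VPRP non-target (adjusted p = 9.16e-08), and CEBPB 1.67-fold in each. RUNX1 fell 2.27-fold in VPRP sgHBB (adjusted p = 1.98e-05) and 1.85-fold in p300 sgHBB (adjusted p = 0.000779). IRF8 and KLF4, which favour the monocyte line, rose 2.65-fold and 2.92-fold in VPRP sgHBB and 3.95-fold and 4.21-fold in VPRP non-target. They also rose in p300 sgHBB, 3.43-fold and 1.95-fold, where MPO was near 0. In p300 D1399Y sgHBB against p300 sgHBB, IRF8 was 4.62-fold lower (adjusted p = 3.11e-13) while MPO was higher.

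Of 9 genes of heme synthesis, which make the cofactor of MPO, 8 were tested, and 1 to 4 rose and 1 to 4 fell in each comparison with WT. With 13.8% to 31.2% of all genes rising and 11.5% to 28.5% falling, these counts are no result about the pathway. ALAS1, the first enzyme of the pathway, rose 1.77-fold in p300 sgHBB, 1.63-fold in VPRP sgHBB and 1.80-fold in VPRP non-target (adjusted p = 3.79e-10, 4.19e-09 and 5.77e-11). It was not called in VPR sgHBB or p300 D1399Y sgHBB, whose MPO levels were close to that of VPRP sgHBB. Of 6 genes that fold glycoproteins such as the MPO precursor, CALR, calreticulin, rose 1.46-fold to 2.11-fold and HSPA5, BiP, 1.33-fold to 2.04-fold in the 5 groups, p300 sgHBB included. CANX, calnexin, fell in all 5, by log2 -0.28 to -0.58, with the call in VPR sgHBB lost without WT replicate 1 (log2 -0.21, adjusted p = 0.0946).

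Within the peroxidase family, the relatives described here did not have the MPO pattern. Of 9 relatives 6 were tested. Against WT 2 rose in VPR sgHBB (13.8% of all genes), 4 in p300 sgHBB (24.5%), 3 in p300 D1399Y sgHBB (15.7%), 4 in VPRP sgHBB (31.1%) and 5 in VPRP non-target (31.2%), with 1 fall, PXDN in the last (log2 -0.32), lost without WT replicate 1 (adjusted p = 0.0783) or VPRP non-target replicate 2 (0.06). PTGS2, a cyclooxygenase, was at 0.462 ± 0.0125 CPM in WT and at 4.92 ± 0.0360 CPM in p300 sgHBB (10.5-fold, adjusted p = 1.41e-09). PXDN, peroxidasin of the basement membrane, was raised in p300 sgHBB too (1.91-fold, adjusted p = 1.18e-09).

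The 2 closest relatives, EPX of eosinophils and LPO of milk and saliva, are also neighbours of MPO on chromosome 17. EPX had 10 and 14 reads in WT, 10 and 6 in VPR sgHBB, 8 and 8 in p300 sgHBB, 28 and 63 in p300 D1399Y sgHBB, 16 and 10 in VPRP sgHBB, and 31 and 34 in VPRP non-target. It rose 3.70-fold in p300 D1399Y sgHBB (adjusted p = 0.00255), a call lost without replicate 2 of that group (log2 1.03, adjusted p = 0.234). Its rise of 2.37-fold in VPRP non-target (adjusted p = 0.0300) was lost without any 1 of the 4 libraries of that comparison (adjusted p = 0.0623 to 0.160) and with DESeq2 (0.0958). In VPR sgHBB and VPRP sgHBB it was not called. LPO, the nearest gene on its side, had 0 to 5 reads in 11 libraries and 11 in VPRP sgHBB replicate 2, whose partner had 0.

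Of the 6 nearest genes with a symbol on each side of MPO 5 passed the filter. In VPR sgHBB against WT 0 of these were called by edgeR and 0 by DESeq2, where 13.8% of all genes rose and 11.5% fell, so that 0 of 5 is near the share of all genes. There, MKS1 and RNF43 had an unadjusted p under 0.05 (2 of 5). With RLE factors, with the 1 CPM filter and without WT replicate 1, 1 of the 5 was called lower. TSPOAP1, the nearest gene on the other side, had 0 to 5 reads, and its antisense gene TSPOAP1-AS1 and MIR142HG, the host gene of a microRNA of blood cells, had 0 to 4. MKS1, a ciliary gene, fell 1.29-fold in p300 sgHBB (lost without WT replicate 2, adjusted p = 0.108), 1.60-fold in VPRP sgHBB and 1.78-fold in VPRP non-target. SUPT4H1, of a transcription elongation complex, fell 1.31-fold in VPRP sgHBB, lost without WT replicate 1 (adjusted p = 0.076), and 1.33-fold in VPRP non-target, lost without its replicate 2 (0.0672). RNF43, a ubiquitin ligase that restrains Wnt signalling, rose 2.33-fold in p300 D1399Y sgHBB (adjusted p = 0.000555), and its calls in p300 sgHBB (1.82-fold) and VPRP sgHBB (1.58-fold) were lost without WT replicate 2 (adjusted p = 0.101 and 0.229), without p300 sgHBB replicate 1 (0.13) and without VPRP sgHBB replicate 2 (0.429). The pseudogene MSX2P1 rose in p300 sgHBB and VPRP sgHBB, both lost without WT replicate 2 (0.0644 and 0.0603) and the former also without p300 sgHBB replicate 2 (0.069). The strand setting of the counting is not given in the sources used here, so reads of overlapping genes in this stretch cannot be told apart.

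**Figure D5:**
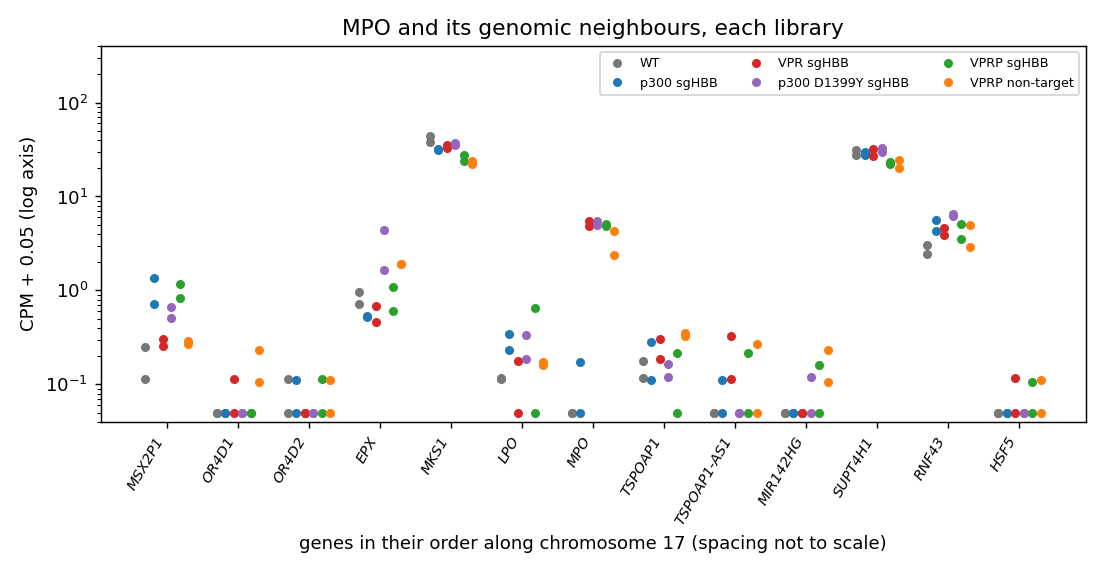
Level of MPO and its 12 neighbours as CPM + 0.05 on a log axis (vertical) in every library, with genes in their order along chromosome 17 (horizontal, spacing not to scale) and colours for the groups. MPO has its 8 raised libraries far above the 4 others, while no neighbour shows that gap.

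Over all 12 libraries the genes most like MPO were ranked by Pearson's r of log2(CPM + 0.5) among 15546 genes with a symbol, as a description. Among the 10 highest were PRTN3 (0.975), SRGN (0.933), ELANE (0.931) and MARCKSL1 (0.930), followed by ELMOD2 (0.929), NXPH4 (0.927), EEF1A2 (0.921), SPHK1 (0.920) and MXRA8 (0.913). Thus 3 of the 10 were azurophil granule genes. Of these, PRTN3 and ELANE are both on chromosome 19 and SRGN is on chromosome 10. The values share the same libraries and the same division into 4 low and 8 raised ones, which sets most of each r. Outside the granule genes the differences were smaller, and EEF1A2, a translation elongation factor, was at 169 to 267 CPM in the raised and 117 to 151 CPM in the low libraries. The lowest r were those of DPF2 (-0.955), a subunit of the BAF chromatin remodelling complex, AGTPBP1 (-0.953), CPNE1 (-0.922), DTNB (-0.911) and POLR1D (-0.909), and DPF2 was at 98.9 to 114 CPM in the raised and 135 to 145 CPM in the low libraries. By Spearman's rank, 2 of these 10 top genes remained among the first 10, with ELANE first, PRTN3 at rank 183 and SRGN at rank 257.

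All 8 raised libraries lay above all 4 low ones for 161 genes (0.964% of 16694) and below them for 153 (0.916%). A gap of at least 3-fold between the lowest raised group mean and the highest low library, with 0.1 CPM added to both, was met by 3 genes in the upward direction and by 0 in the downward direction. The 3 were MPO (15.2-fold), ELANE (6.91-fold) and SRGN (3.18-fold), and PRTN3 (2.85-fold) and the potassium channel gene KCNA7 (2.11-fold) came next. Without the low-count filter, among 32291 genes with a read, 3 genes met the rule.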

How the data were processed

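Gene counts of 12 RNA libraries were analysed; 10 H3K27ac samples were not analysed here, and the labels of 2 of them conflict. The authors' table holds raw read counts per gene, not normalized. Per the submitters' processing notes the build was hg19 and the tools were DESeq2 1.24.0, HTSeq 0.6.1, STAR 2.5, deepTools and BWA, with no role given; annotation release and strand setting: not given in the sources used here. Symbols matched 33626 of 48162 IDs, and IDs without one took 0.766% to 0.896% of counts. In R 4.3.3, edgeR 4.0.16 (limma 3.58.1) fitted a mean for each of 6 groups to all 12 libraries, with filterByExpr (minimum count 10, total 15), TMM factors and Benjamini-Hochberg adjustment at 0.05. Alternatives are named in the closing section, with DESeq2 1.42.0 among them. The fit was tested on simulated data. Neighbours and promoters came from RefSeq tables (GRCh38.p14). Plots used Python 3.11.15 and matplotlib 3.10.9. Reads carried no molecular identifiers. MPO, the gene lists and the tests were chosen with earlier results of these data known. Genes were named by a fixed rule (MPO, HBB, EP300, RELA, EPX, LPO, neighbours, the 10 highest and 5 lowest in likeness, the 3-fold pattern, up to 4 of the most changed members of each list and members near 0); MAGEA10 and members beyond 4 of a list were named after values were seen. Results for 2 genes that the rule would name are not reported here.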

Additional observations from a re-analysis of the deposited data

How the results depend on the processing

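Each of the 6 MPO differences among the raised groups was recomputed under 11 alternatives. For VPRP non-target against p300 D1399Y sgHBB the log2 value was -0.64 with DESeq2, -0.64 with RLE factors, -0.62 with upper-quartile factors and -0.65 with the 1 CPM filter, with the call lost in each, and -0.29 to -1.16 with 1 library left out. It kept its call with no filter (adjusted p = 0.0234), in a fit of the 2 groups alone (0.0366) and with the replicate block (log2 -0.67, adjusted p = 0.0450). VPRP non-target against VPR sgHBB was called with no low-count filter (-0.68, adjusted p = 0.029) and ran from -0.27 to -1.14 with 1 library left out. VPRP sgHBB against VPRP non-target ran from 0.23 to 1.10, with a call without VPRP non-target replicate 1. The sign of a value near 0 turned for VPRP sgHBB against VPR sgHBB (-0.13 to 0.039 with 1 library left out, the latter without VPR sgHBB replicate 1) and for VPR sgHBB against p300 D1399Y sgHBB (-0.11 to 0.058, the latter without VPR sgHBB replicate 2, and 0.033 without p300 D1399Y sgHBB replicate 2). Among named genes, PTGS1 in p300 sgHBB against WT ran from 0 (without p300 sgHBB replicate 1) to 5.81 and CEBPA in VPRP non-target against WT from -0.27 (without VPRP non-target replicate 1) to 3.57. The replicate numbers did not pair the libraries, with correlations of deviations of -0.0413 to 0.0661 over 15 pairs of groups. The cause of these changes was not tested. The number of called genes fell for VPR sgHBB against WT from 4220 to 2752 without WT replicate 1, 2548 without WT replicate 2 and 2746 without VPR sgHBB replicate 2. For p300 D1399Y sgHBB against p300 sgHBB it fell from 5076 to 3226 without p300 sgHBB replicate 1 and 3193 without p300 D1399Y sgHBB replicate 1. For VPRP sgHBB against VPRP non-target it fell from 4898 to 3185 and 3200 without VPRP non-target replicate 1 and 2, and for VPR sgHBB against p300 D1399Y sgHBB from 3527 to 2197 without VPR sgHBB replicate 2 and 1977 without p300 D1399Y sgHBB replicate 1. Of 1320 counts of listed genes 118 moved by over 1.5 times, and of 30 group levels of MPO 0 moved beyond the SD. The rule for likeness shared 8 and 9 of 10 genes with a pseudocount of 0.1 and 1, and 5 with group means. At 42 to 92 reads a raised library gives MPO to within its Poisson interval only, and genes of 0 to 5 reads cannot show a difference.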
